A study of Mus musculus with 2 samples.

Results

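Fibro-adipogenic progenitors (FAPs) are the fibroblast-like connective tissue cells of muscle, and the cells described here were FAPs that carried RNA of Stmn4, Cmah, Fam167a or Duox1 in combination. They were chosen by their own counts of unique molecular identifiers (UMIs, 1 per captured RNA molecule). A gate first kept barcodes with at least 1000 UMIs, at most 5% mitochondrial UMIs, at least 1 UMI of Pdgfra or Cd34, at least 50 UMIs of Dcn and fewer than 2 of Tnmd, a tendon cell gene. Members of the population then had at least 1 UMI each of at least 2 of the 4 genes Stmn4, Fam167a, Cmah and Duox1, and fewer than 5 UMIs in all of Dmkn, Sbsn and Krtdap, which mark another FAP population. The rule found 428 cells of 7658 barcodes in the series. Quadriceps gave 287 of its 1766 gate cells (16.3%, 95% exact binomial interval 14.6% to 18.1%), and diaphragm gave 141 of its 1385 gate cells (10.2%, interval 8.64% to 11.9%).

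The study profiled cells of C57BL/6J mice in 2 droplet libraries, 1 from the quadriceps of the thigh and 1 from the diaphragm, which drives breathing. Tissue came from 10 mice, 5 for each library, and was digested with collagenase B and dispase II and passed over a Lympholyte-M density gradient, and cells of several muscles of a kind were pooled before viable cells were sorted by light scatter. No genetic change or treatment was part of the design, and the age of the mice is not given in the sources used here. There was 1 library per tissue, so no value has a replicate and no test across samples was possible. Tissue, pool of animals and library cannot be told apart. The files held 5159 quadriceps barcodes with 50854519 UMIs and 2499 diaphragm barcodes with 28545242 UMIs, and 5 barcode sequences occurred in both libraries, 0 of them among members. Members were somewhat deeper than the other gate cells, with a median of 12259 against 10945 UMIs in quadriceps and 14979 against 12729.5 UMIs in diaphragm.

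FAPs lie between muscle fibres and around vessels, build collagen matrix, and can give rise to fibroblasts and adipocytes. Fibroblasts around larger vessels and in fascia are known for Pi16, Dpp4 and Sema3c, and are held to be less committed than those around the fibres, which are known for basement membrane and chemokine genes. The marker genes have diverse roles. Stmn4 encodes a stathmin, a protein that binds tubulin and destabilises microtubules, and is best known from neurons. Cmah makes N-glycolylneuraminic acid, a sialic acid of most mammals that humans have lost. Duox1 is an oxidase that releases hydrogen peroxide, Efhd1 is a calcium-binding mitochondrial protein, and Cd55 protects cells from complement. The cellular role of Fam167a is little known.

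On the GRCm38 build, in GENCODE M21, all 6 markers are protein-coding genes. Stmn4 lies at chr14:66344296-66361680 and Fam167a at chr14:63436394-63465498, both on the plus strand. Cmah is at chr13:24327404-24477377 (plus), Duox1 at chr2:122315672-122347972 (plus), Efhd1 at chr1:87264363-87310839 (plus) and Cd55 at chr1:130439027-130462744 (minus). Efhd1 and Cd55 are the markers that the rule did not use, and the 250 bases before their RefSeq starts (GRCm38.p6) are shown to put the sequence of these start regions beside their levels. Capitals mark matches to a GC box (GGGCGG, both strands). Efhd1 is at chr1:87264103-87264352 on the plus strand and Cd55 at chr1:130462745-130462994 on the minus strand.
Efhd1: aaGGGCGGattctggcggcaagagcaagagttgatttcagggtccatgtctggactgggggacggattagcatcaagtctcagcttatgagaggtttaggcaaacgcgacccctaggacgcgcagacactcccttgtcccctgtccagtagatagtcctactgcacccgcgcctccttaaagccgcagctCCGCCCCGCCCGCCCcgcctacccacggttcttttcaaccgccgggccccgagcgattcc
Cd55: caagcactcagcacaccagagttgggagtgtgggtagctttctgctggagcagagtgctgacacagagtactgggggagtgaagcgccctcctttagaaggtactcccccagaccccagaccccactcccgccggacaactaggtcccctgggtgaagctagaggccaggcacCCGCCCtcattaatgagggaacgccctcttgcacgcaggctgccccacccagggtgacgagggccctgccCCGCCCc
The Efhd1 window held 4 GC box matches, some overlapping, and the Cd55 window 2, and 32.7% of 32851 RefSeq promoter windows of this length held at least 1. Neither window held a TATA box (TATAAA, in 12.4% of all windows), a CCAAT box (CCAAT, 33.8%), an AP-1 site (TGANTCA, 6.75%) or a TEAD site (GGAATG, 12.6%). Of the other markers, Duox1 had 1 window with none of these 5 motifs, and Cmah had 2 windows with 1 CCAAT box between them. A match is a description of letters and not a bound site.

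Stmn4 was the most widely detected of the 4 rule genes in the members. At full depth, without thinning, 92.0% of quadriceps members had a Stmn4 UMI, 65.2% one of Fam167a, 65.2% one of Cmah and 46.0% one of Duox1. In diaphragm the shares were 95.7% for Stmn4, 40.4% for Fam167a, 72.3% for Cmah and 22.7% for Duox1. In quadriceps 140 members had 2 of the 4 genes, 98 had 3 and 49 had all 4, while in diaphragm 105 had 2, 28 had 3 and 8 had all 4. Just outside it lay 229 quadriceps and 331 diaphragm gate cells with 1 of the genes. The commonest pair among members with 2 genes was Stmn4 with Cmah, in 50 quadriceps and 62 diaphragm cells. No pair without Stmn4 was found in more than 7 quadriceps or 4 diaphragm members.

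The rule genes were sparse. No member held more than 16 Stmn4 UMIs in quadriceps or 17 in diaphragm, and the highest Duox1 count was 6 and 4. Summed over cells and scaled to a common library total as CPM, UMIs of a gene per 1000000 UMIs of the class, Stmn4 stood at 259 CPM in quadriceps members and 51.9 CPM in the other gate cells, and at 272 against 60.9 CPM in diaphragm. Fam167a was at 97.6 against 18.2 CPM in quadriceps and 43.0 against 3.67 CPM in diaphragm. Cmah was at 126 against 23.4 CPM and at 122 against 15.4 CPM, and Duox1 at 59.5 against 14.6 CPM and at 19.9 against 2.51 CPM. These 4 differences are the selection itself. Efhd1 and Cd55 were not in the rule, but they were picked as markers on earlier results of these same cells and are likewise a description. Efhd1 was at 494 CPM in quadriceps members against 206 CPM in the other gate cells, a log2 difference of 1.26 (95% exact interval 1.18 to 1.35). In diaphragm it was at 212 against 60.1 CPM, a difference of 1.80 (1.66 to 1.98). These differences had 1 CPM added to each side, and their intervals came from the exact binomial split of the 2 counts, without that addition. Cd55 was at 827 against 306 CPM, a difference of 1.43 (1.37 to 1.50), and at 659 against 243 CPM, a difference of 1.44 (1.35 to 1.53). Neither gene was particular to the members. Gate cells set aside by the Dmkn, Sbsn and Krtdap limit, counted among the other gate cells, held Efhd1 above the members. It was at 622 CPM there in quadriceps and 335 CPM in diaphragm. Cd55 was at 738 CPM in these quadriceps cells, below the members, and at 894 CPM in the diaphragm cells, above them. All intervals given for levels and shares cover counting error only, not the spread between animals.

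**Figure D1:**
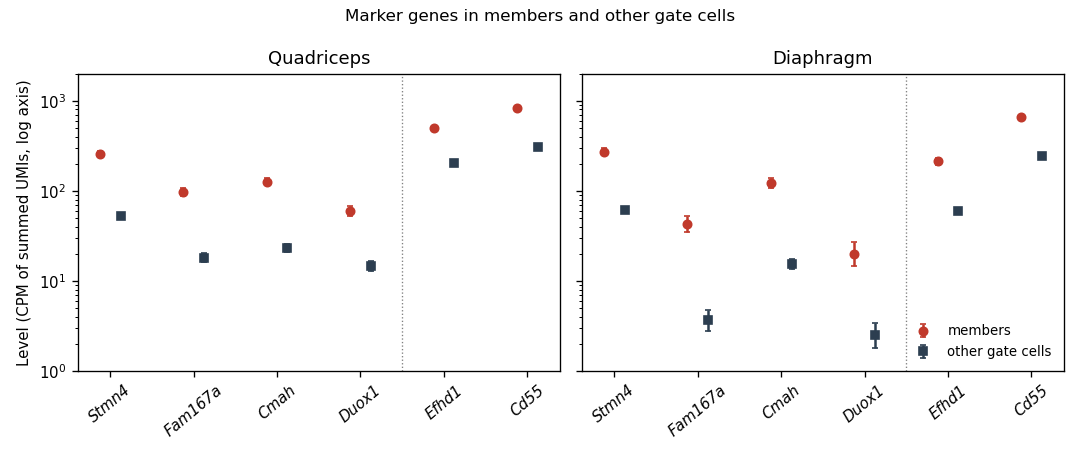
Levels of the 4 rule genes (left of the dotted line) and of Efhd1 and Cd55 in members (red circles) and other gate cells (dark squares) of each tissue, as CPM of summed UMIs on a log axis, with 95% exact Poisson intervals. Members were above the other gate cells for all 6 genes in both tissues; the 4 genes left of the line chose the members.

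Membership moved with depth, and the part of depth in the choice of members was not tested beyond the thinning given here. Gate cells were ranked by UMIs and split into 4 bins of like size. The share of members in the lowest bin was 7.01% in quadriceps and 1.73% in diaphragm, and in the highest bin 25.6% and 17.9%. When every gate cell was thinned to 5000 UMIs before the genes were counted, members were 10.1% of quadriceps and 4.29% of diaphragm gate cells. The order of the tissues held there, but with only 1 of the 4 genes required it turned, with 29.2% in quadriceps and 34.1% in diaphragm. The difference in Efhd1 level was present in each bin, with log2 differences between 0.78 and 1.98 in quadriceps and between 1.26 and 2.52 in diaphragm. For Cd55 they lay between 1.03 and 2.24 and between 0.57 and 1.75. The lowest diaphragm bin, with only 6 members, gave the 2.52 and the 0.57.

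How often the rule genes were seen in the same cells was measured at a fixed depth. The genes were picked from these cells as markers of 1 population, so their overlap describes that choice and is no independent support for it. With every gate cell thinned to 5000 UMIs, Cmah was seen in 31.6% of quadriceps gate cells with Stmn4 (130 of 412) and in 7.63% of those without (99 of 1297). Fam167a was seen in 28.2% against 5.63%, and Duox1 in 18.9% against 5.32%. In diaphragm, Cmah was seen in 19.6% of gate cells with Stmn4 and in 4.06% of those without. Duox1 there showed no such pairing with Stmn4, at 1.58% against 1.61%, on 22 Duox1 cells in all. The same holds for the levels of the other two genes in cells chosen on 2 of them. In 171 quadriceps gate cells with both Stmn4 and Fam167a, Cmah was at 126 CPM against 4.80 CPM in 1059 cells with neither, and Duox1 at 56.4 against 4.27 CPM. In 55 diaphragm cells chosen in this way, Cmah was at 98.0 against 5.43 CPM and Duox1 at 14.3 against 1.87 CPM. Cells with both Cmah and Duox1, 77 in quadriceps and 18 in diaphragm, had Stmn4 at 244 against 31.7 CPM and at 242 against 59.7 CPM. They had Fam167a at 114 against 8.70 CPM in quadriceps and at 53.2 against 2.20 CPM in diaphragm. The chosen cells were the deeper ones, with a median of 12304 against 10631 UMIs for the quadriceps cells with Stmn4 and Fam167a.

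Shares of cells with a UMI were set beside a class chosen to be low in the FAP genes of the gate. It held barcodes with a UMI of Ptprc, the pan-leukocyte antigen, none of Pdgfra or Cd34 and fewer than 50 of Dcn, 166 in quadriceps (median 3985 UMIs) and 31 in diaphragm (median 6637 UMIs). With every cell thinned to 3000 UMIs, Stmn4, Fam167a and Duox1 were seen in 0 of the 132 such quadriceps cells deep enough, which allows a share of up to 2.27%, and in 0 of 28 diaphragm cells, up to 10.7%. Cmah was seen in 15 of them in quadriceps (11.4%, interval 6.50% to 18.0%) and in 2 in diaphragm (7.14%). At that depth quadriceps members showed Cmah in 30.7% and Duox1 in 18.5%, and diaphragm members in 26.2% and 5.67%. Efhd1 was seen in 74.6% of quadriceps members, 32.7% of other gate cells and 0.758% of background cells. The diaphragm shares of Efhd1 were 40.4%, 10.9% and 0%. Summed, Cmah was at 45.3 and 23.1 CPM in background cells, above the other gate cells at 23.4 and 15.4 CPM. The class therefore gives no background level for Cmah, nor for Apoe and Tmem176b, reported below.

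The label of FAPs was set against canonical genes that the gate had not used. Of 14 FAP genes listed, Pdgfra, Cd34 and Dcn were in the gate, so their detection is no check. The other 11 were detected in members of both tissues and reached 50 CPM in members or other gate cells of each tissue. Most leaned lower in members than in other gate cells. Only 3 of the 11 had a positive log2 difference in quadriceps and 2 in diaphragm, with medians of -0.17 and -0.31. Ly6a, the Sca-1 antigen of mesenchymal progenitors, was at 3212 CPM in quadriceps and 2230 CPM in diaphragm members, against 50.9 and 149.9 CPM in background cells. The collagen gene Col3a1 was at 7970 and 5468 CPM in members and 70.2 and 34.6 CPM in background cells. The gate gene Pdgfra was lower in members than in other gate cells, at 332 against 530 CPM and 409 against 519 CPM, and Cd34 higher, at 1809 against 1231 CPM and 1746 against 1193 CPM. Dcn was at 14215 against 22345 CPM in quadriceps and at 13007 against 18635 CPM in diaphragm. Lum, a small proteoglycan that organises collagen fibrils, was at 658 against 1620 CPM in quadriceps and 1128 against 1853 CPM in diaphragm.

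Markers of several other cell types were compared with the other gate cells. The 8 endothelial markers summed to 11.5 CPM in quadriceps members (other gate cells 4.96) and 7.24 CPM in diaphragm members (16.8), with Vwf and Emcn at 0 in both. The 9 immune markers summed to 33.0 CPM (70.1) and 7.69 CPM (10.4), with Cd3e at 0 in both. Perineurial genes summed to 17.7 CPM (24.2) and 11.8 CPM (8.99), and mesothelial genes to 7.24 CPM (11.4) and 1.36 CPM (46.2), with Msln, Krt8, Krt18 and Lrrn4 at 0 in both. Smooth muscle and pericyte genes summed to 162 CPM (172) and 47.5 CPM (30.3), with Acta2 the largest part. Muscle fibre genes summed to 12.1 CPM (11.7) and 60.6 CPM (32.0), and the 5 satellite cell genes to 124 CPM (132) and 122 CPM (118). All of the latter came from Sdc4, while Pax7, Myf5, Myod1 and Chrdl2 were at 0 in both.

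Genes that set the members apart were compared by the log2 fold of CPM over the other gate cells, with 1 CPM added to each side, for the 2992 genes whose higher class reached 50 CPM in quadriceps and in diaphragm. The rule and gate genes were left out. A call was a difference of at least 2-fold, and since the cells were chosen from these counts it is a description of size. In quadriceps 34 genes (1.14%) were higher and 110 (3.68%) lower in members, and in diaphragm 48 (1.60%) were higher and 57 (1.91%) lower. In both tissues, 21 genes (0.702%) were higher and 51 (1.70%) lower. The count of 21 moved with the cells compared: it was 13 with the other gate cells weighted to the members' depth, and 59 with the Dmkn cells left out of them, a comparison added after the data were seen. Across all 2992 genes, quadriceps and diaphragm folds correlated with Pearson r = 0.79, a description since genes share cells and depth, and 2251 genes had the same sign. The median fold of all genes was 0.04 in quadriceps and 0.08 in diaphragm.

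Fbn1, which encodes fibrillin-1, the main protein of microfibrils, led the matrix genes that were higher. Every member held it, with per-cell levels in quadriceps from 298 to 11125 CPM and a median of 3034 CPM, and in diaphragm from 208 to 6987 CPM with a median of 1881 CPM. The medians of the other gate cells were 835 and 621 CPM, and their highest cells, 11394 and 7076 CPM, overlapped the members. Summed, Fbn1 was at 3376 against 1274 CPM in quadriceps and 2331 against 907 CPM in diaphragm, log2 differences of 1.41 and 1.36.

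Limch1, a gene of actomyosin contractility, had the largest difference by the smaller fold of the tissues, at 185 against 59.1 CPM and 141 against 35.0 CPM (1.63 and 1.97). Sema3c, a secreted guidance cue, was at 850 against 378 CPM in quadriceps and 357 against 136 CPM in diaphragm (1.17 and 1.38). Thinned to 3000 UMIs, 82.9% of quadriceps members and 40.4% of other gate cells had a Sema3c UMI, with 0 of 132 background cells, and at full depth 99.0% and 61.5%. Ackr1, an atypical receptor that binds chemokines without signalling, was at 109 against 42.1 CPM and 66.1 against 23.7 CPM. Opcml, a cell adhesion molecule, was at 92.0 against 41.2 CPM and 79.6 against 35.0 CPM.

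Enzymes that make sugar nucleotides for glycans stood among the leading genes. Ugdh makes UDP-glucuronic acid, a precursor of hyaluronan and proteoglycans, and was at 627 against 254 CPM in quadriceps and 970 against 404 CPM in diaphragm (1.30 and 1.26). Uap1, which makes UDP-N-acetylglucosamine, was at 672 against 291 CPM and 777 against 317 CPM (1.20 and 1.29). Gfpt2, at the entry of the hexosamine pathway, was at 504 against 209 CPM and 602 against 285 CPM (1.27 and 1.08). The hyaluronan synthase Has2 had differences of 1.39 in quadriceps and 0.99 in diaphragm, the latter within 2-fold. This grouping by role was made after the values were seen. High levels of these genes were not particular to the members. The Dmkn cells, set aside by the rule and counted among the other gate cells, held Ugdh at 634 CPM in quadriceps and 1853 CPM in diaphragm. Gfpt2 was at 535 and 858 CPM there. Both were near the members in quadriceps and above them in diaphragm. Uap1 was at 503 and 1047 CPM in the Dmkn cells, and Has2 at 50.5 and 150 CPM. These genes were below the members in quadriceps and above them in diaphragm.

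Of the other leading genes, Nhsl1, Fam126a, 1700019D03Rik, Arl4d and Ppp1r14b, an inhibitor of myosin phosphatase, had log2 differences of 1.05 to 1.46 in quadriceps and 1.06 to 1.27 in diaphragm. D630033O11Rik, Mustn1, Lurap1l, Pde8a, Dbn1, the actin-binding drebrin, and the transcription factor Creb5 complete the 21 genes and are named because they were called, after their values were seen, with differences from 1.01 to 1.61 and from 1.02 to 1.19.

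**Figure D2:**
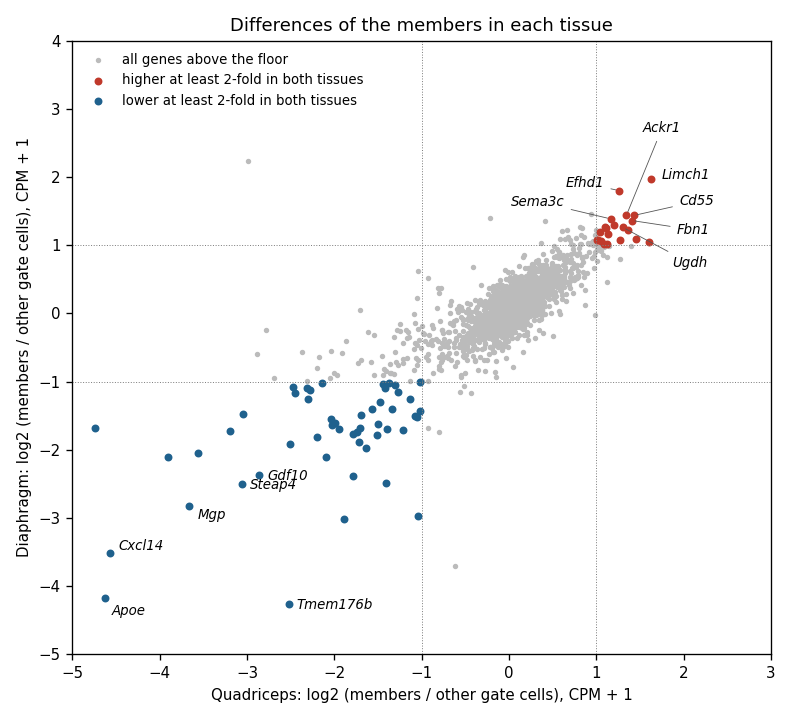
Log2 fold of members over other gate cells in quadriceps (horizontal) and diaphragm (vertical), CPM plus 1, for 2992 genes; dotted lines mark 2-fold. The 21 genes at least 2-fold higher in both tissues (red) reach 1.63 and 1.97 at Limch1, while the 51 lower genes (blue) spread further, to -4.63 and -4.17 at Apoe.

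The lower genes differed by larger folds. Apoe, a lipid carrier, had 30 UMIs in all quadriceps and 20 in all diaphragm members, 8.04 against 223 CPM and 9.05 against 180.5 CPM (-4.63 and -4.17). At full depth 7.67% and 7.09% of members carried a UMI, and thinned to 3000 UMIs 1.39% and 1.42%, against 13.4% and 14.5% of other gate cells. The background cells held Apoe at 581 and 1241 CPM, more than either class. Cxcl14, a chemokine, was at 69.4 against 1674 CPM in quadriceps and 48.9 against 568 CPM in diaphragm (-4.57 and -3.51). A single quadriceps member held 39.4% of the 259 Cxcl14 UMIs, and without that cell the level was 42.4 CPM. Mgp, an inhibitor of calcification, was at 257 against 3274 CPM and 528 against 3737 CPM (-3.66 and -2.82). Its per-cell median was 0 in quadriceps and 159 CPM in diaphragm members, against 760 and 2102 CPM in the other gate cells, but single members reached 12088 and 10774 CPM.

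The other leading lower genes were Tmem176b, the metalloreductase Steap4, the BMP-family ligand Gdf10, Fbln7, Fmo2, Crispld2, Apod, the prohormone carboxypeptidase Cpe, the lipase inhibitor G0s2, transferrin (Trf), ceruloplasmin (Cp) and the protease inhibitor cystatin C (Cst3). Steap4 was at 26.0 against 224 CPM and 24.4 against 144 CPM. Gdf10 was at 16.1 against 123 CPM and 17.6 against 95.5 CPM. Cst3, still high in members, was at 879 against 2944 CPM in quadriceps and 980 against 3268 CPM in diaphragm, a difference of -1.74 in each. Tmem176b, at 17.7 against 107 CPM and 3.62 against 87.8 CPM, was at 257 and 703 CPM in background cells.

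The levels of marker and leading genes followed the number of rule genes a cell showed. Since the rule genes chose the members and these genes were picked as differing in them, the trend describes that choice. It is no independent support. Among gate cells under the Dmkn limit, Fbn1 in quadriceps was at 795 CPM in 992 cells with none of the 4 genes, 1651 CPM with 1, 2639 CPM with 2, 3687 CPM with 3 and 4595 CPM with all 4. In diaphragm the values were 638, 1112, 1879, 3293 and 4007 CPM, the last from 8 cells. Cd55 went from 158 to 1000 CPM (quadriceps) and from 145 to 1299 CPM (diaphragm), with each step higher than the one before. Efhd1 was at 70.0 CPM with 0 genes and 527 CPM with 4 in quadriceps, where 3 genes gave 558 CPM, and at 22.3 and 445 CPM in diaphragm. Cxcl14 was at 2486 CPM in quadriceps cells with 0 genes, 449 CPM with 1, 120 CPM with 2, 20.4 CPM with 3 and 34.6 CPM with 4. The diaphragm cells with all 4 genes held 0 UMIs of Cxcl14 and of Apoe. Median UMIs rose along the same steps, 10520 to 13862 for quadriceps and 12297 to 16526 for diaphragm. Within the 4 bins of depth, the Fbn1 difference between members and others lay between 1.14 and 1.76 (quadriceps) and between 0.63 and 1.44 (diaphragm). The 0.63 came from the lowest bin, with only 6 members.

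**Figure D3:**
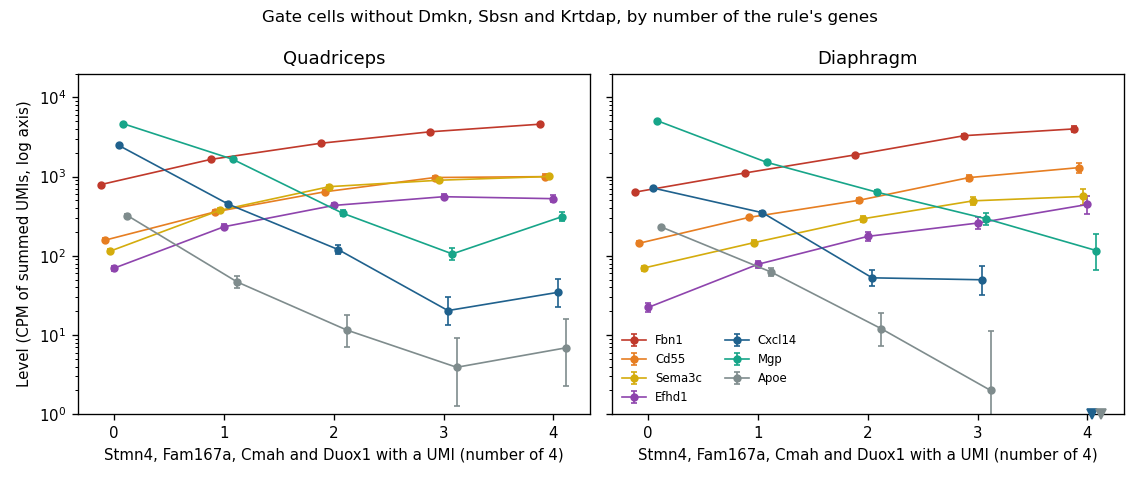
CPM of summed UMIs (log axis, 95% exact Poisson intervals) of 7 genes in gate cells with fewer than 5 UMIs of Dmkn, Sbsn and Krtdap, by how many of the 4 rule genes had a UMI; cells with 2 or more are the members. Fbn1, Cd55, Sema3c and Efhd1 were higher and Cxcl14, Mgp and Apoe lower from 0 to 3 genes in both tissues, and triangles at the axis mark genes with 0 UMIs in the 8 diaphragm cells with all 4. The genes shown were picked as differing in members, so their direction describes that choice.

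Genes of the Pi16 and Dpp4 fibroblast progenitors leaned to the members. Of 25 listed genes 21 passed the floor, 5 were at least 2-fold higher in both tissues (Sema3c, Limch1, Creb5, Opcml and Gfpt2) and 0 were lower, beside 0.702% higher and 1.70% lower over all genes. Their median log2 fold was 0.95 in quadriceps and 1.04 in diaphragm, against 0.04 and 0.08 over all genes. The sign was positive for 20 of the 21 in quadriceps and for all 21 in diaphragm. This lean was not particular to the members. The Dmkn cells, which are among the other gate cells, held all 5 called genes above the members in both tissues. Sema3c was at 1236 and 702 CPM there, and Limch1 at 206 and 210 CPM. The list was drawn up with earlier results of these data known. Its name genes were within 2-fold or close to it. Pi16 was at 3183 against 2198 CPM in quadriceps and 5570 against 3104 CPM in diaphragm (0.53 and 0.84), and Dpp4, a cell surface peptidase, at 398 against 206 CPM and 131 against 63.2 CPM (0.95 and 1.04). The receptor tyrosine kinase gene Tek was at 206 against 95.9 CPM and 105 against 53.0 CPM (1.09 and 0.97). Cd248, or endosialin, was at 902 against 464 CPM and 768 against 367 CPM. Ackr3, a scavenger receptor for Cxcl12, was at 914 against 460 CPM and 1005 against 432 CPM (0.99 and 1.22).

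Genes of elastic fibres and microfibrils did not move in 1 direction. Of 15 above the floor, Fbn1 was higher and Mfap2, Eln and Lox were lower in both tissues, beside 0.702% and 1.70% of all genes. In each tissue 7 of the 15 had a positive difference, and the medians were -0.17 and 0.00. Mfap5, a microfibril protein, was at 3671 against 2059 CPM and 3402 against 1917 CPM (0.83 in each). Elastin (Eln) was at 102 against 260 CPM and 213 against 562 CPM, and Lox, which crosslinks elastin and collagen, at 21.7 against 86.6 CPM and 43.0 against 142 CPM. Fbln1 was at 128 against 257 CPM in quadriceps and 539 against 1071 CPM in diaphragm (-0.996 and -0.989).

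Basement membrane and endomysial genes were lower or alike. Of 15 above the floor, 1 was at least 2-fold lower in both tissues (1.70% of all genes were) and 0 were higher (0.702%). The lower gene was Smoc2, a matricellular calcium-binding protein, at 458 against 2505 CPM and 594 against 1332 CPM. The list medians were -0.34 and -0.22. Col15a1 was at 78.3 against 513 CPM in quadriceps (-2.70) and 387 against 750 CPM in diaphragm (-0.95), and Col4a1 at 476 against 988 CPM (-1.05) and 415 against 572 CPM (-0.46). Nid1, a laminin and collagen IV linker, had positive differences of 0.55 and 0.48. Among 6 further collagen genes above the floor, 0 passed 2-fold in both tissues, which is near the share over all genes. Col8a1 was at 55.5 against 116 CPM in quadriceps and 635 against 414 CPM in diaphragm. Its quadriceps difference turned to 0.89 when 1 of the 4 rule genes was enough for a member.

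Genes of other FAP populations were mostly low in members. Of 10 genes of the Cxcl14 and Hsd11b1 population above the floor, 8 were at least 2-fold lower in both tissues (Cxcl14, Apod, Hsd11b1, G0s2, Penk, Cpe, Adh1 and Gas1), beside 1.70% of all genes, with medians of -1.77 and -1.61. At full depth, at least 5 UMIs of Cxcl14 and Hsd11b1 together were found in 13 quadriceps members (4.53%) against 41.6% of the other gate cells, and in 19 diaphragm members (13.5%) against 32.1%. For Gdf10 with Sfrp1, a secreted Wnt antagonist, the shares were 4.18% against 14.3% and 3.55% against 30.9%. Prg4 with Clu gave 24.0% against 33.0% in quadriceps but 25.5% against 24.5% in diaphragm. Has1 and Tnfaip6, a hyaluronan synthase and a hyaluronan-binding protein, were the exception, with 7.67% of quadriceps members against 2.16% of the others and 51.1% of diaphragm members against 28.5%.

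**Figure D4:**
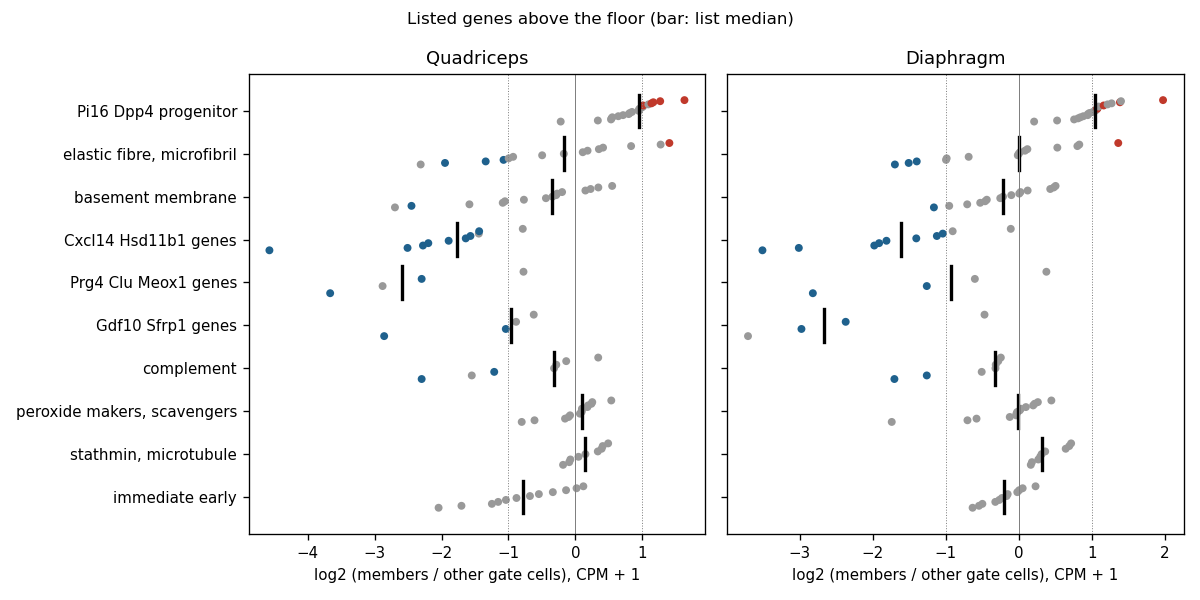
Log2 fold of members over other gate cells (CPM plus 1) for listed genes above the 50 CPM floor, 1 point a gene, in 10 lists per tissue; red and blue points were at least 2-fold higher or lower in both tissues, and black bars are list medians. The Pi16 Dpp4 progenitor list has its medians at 0.95 and 1.04, and the Cxcl14 Hsd11b1 list at -1.77 and -1.61.

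Duoxa1, the maturation factor that the Duox1 enzyme needs to leave the endoplasmic reticulum, lies next to Duox1 at chr2:122302191-122313730 on the opposite strand, with 1941 bases between the genes. It was under the floor but higher in members, at 43.7 CPM (163 UMIs) against 13.3 CPM in quadriceps and 19.9 CPM (44 UMIs) against 3.67 CPM in diaphragm, log2 differences of 1.65 and 2.16. At full depth a Duoxa1 UMI was found in 36.9% of quadriceps members and 10.5% of other gate cells, and in 19.1% and 3.22% in diaphragm; thinned to 3000 UMIs the shares were 11.1% against 3.07% and 5.67% against 0.644%, with 0 of 132 and 0 of 28 background cells. Duox2 and Duoxa2 had 0 UMIs in members of both tissues. Of 14 oxidase and peroxide scavenger genes above the floor, 0 passed 2-fold in both tissues, which is near the share over all genes. The list medians were 0.10 and -0.01. Gpx3, a secreted glutathione peroxidase, was at 475 against 828 CPM and 502 against 1682 CPM (-0.80 and -1.74).

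Around Cmah, only 2 of 17 listed sialic acid genes, Cmah not among them, passed the floor. That 0 of these were called is near the share over all genes. The genes that make CMP-sialic acid were alike in both classes, with Gne at 13.7 against 12.7 CPM and Cmas at 25.5 against 22.4 CPM in quadriceps. The sialyltransferase St6gal1, under the floor, was at 29.5 against 11.5 CPM in quadriceps and 11.8 against 4.95 CPM in diaphragm. Of the other stathmins, Stmn1 was at 12.6 against 24.6 CPM in quadriceps and 57.9 against 8.81 CPM in diaphragm, where 1 member held 70.3% of the 128 UMIs. Stmn2 and Stmn3 were at or under 10.2 CPM in members. Of 9 microtubule genes above the floor 0 passed 2-fold, which is near the share over all genes, with medians of 0.15 and 0.31.

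Around Cd55, the complement genes Clu and C4b were lower in both tissues among 7 above the floor, where 1.70% of all genes were lower. None was higher, which is near the 0.702% over all genes. C4b was at 55.0 against 129 CPM and 19.9 against 67.2 CPM. C3, the central complement component, was at 1779 against 1403 CPM in quadriceps and 1394 against 1655 CPM in diaphragm, and Serping1, which inhibits the first component, at 2168 against 2382 CPM and 2114 against 2571 CPM. Of 10 growth factors and chemokines above the floor 0 passed 2-fold the same way in both tissues, which is near the share over all genes and no result about the list. Fgf18 was at 88.5 against 48.8 CPM and 104 against 58.3 CPM, Vegfa at 102 against 54.5 CPM and 105 against 68.7 CPM, and Igf1 at 219 against 416 CPM and 291 against 580 CPM. Of 7 Wnt, BMP and TGF-beta ligands and antagonists 0 passed in both, again near the share over all genes. Fst, or follistatin, was at 156 against 361 CPM and 122 against 195 CPM.

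Members resembled the Dmkn, Sbsn and Krtdap cells that the rule set aside. Of 258 such cells in the quadriceps gate, 196 (76.0%) showed at least 2 of the 4 rule genes, and of 68 in diaphragm, 47 (69.1%), so the limit of 5 UMIs alone kept these from being members. Of cells with at least 2 genes, 10 quadriceps cells held 4 UMIs of the 3 genes and 9 held 5, and in diaphragm 1 and 5, while 204 and 99 members held 0. Fbn1 in the Dmkn cells was at 2500 and 2564 CPM, Sema3c at 1236 and 702 CPM, and Cxcl14 at 90.0 and 43.0 CPM. Of the 21 genes higher in members than in the other gate cells, 19 were within 2-fold of the Dmkn cells in both tissues, and of the 51 lower genes 20. The share of all genes within 2-fold of the Dmkn cells was not counted. Only 1.04% of 2990 genes were at least 2-fold higher and 0.803% lower in both tissues. The 19 of 21 may therefore be near the general share and is no result about these genes.

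A direct comparison with the Dmkn cells had 2990 genes above the floor, of which 31 (1.04%) were at least 2-fold higher and 24 (0.803%) lower in members in both tissues. The genes named from it were chosen after their values were seen. Hmcn2, or hemicentin-2, was at 188 against 32.8 CPM in quadriceps and 583 against 84.3 CPM in diaphragm (2.48 and 2.78). Myoc, or myocilin, was at 2627 against 478 CPM and 1892 against 356 CPM (2.46 and 2.41). Ret, a receptor for GDNF-family ligands, was at 69.2 against 13.4 CPM and 85.5 against 11.4 CPM (2.29 and 2.80). The lubricin gene Prg4 was at 279 against 35.0 CPM and 301 against 100.1 CPM. In the other direction, Akr1c18 was at 1.61 against 141 CPM and 0 against 59.7 CPM, Cldn3 at 8.58 against 92.4 CPM and 8.14 against 55.3 CPM, and Igfbp5 at 3422 against 7774 CPM and 1197 against 4084 CPM. Members therefore stood between the rest of the gate and the Dmkn cells in some genes, such as Sema3c and Igfbp5, and above both in Fbn1 in quadriceps.

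Within the members, 3390 genes had at least 50 CPM in the higher tissue. Of these, 156 (4.60%) were at least 2-fold higher in diaphragm and 91 (2.68%) at least 2-fold higher in quadriceps. Of the 247 genes, 241 had the same direction in the other gate cells and 167 were also past 2-fold there, so most of the tissue difference was shared with the rest of the gate. Among the marker genes, Efhd1, Fam167a and Duox1 were higher in quadriceps members, with log2 differences of diaphragm over quadriceps of -1.22, -1.16 and -1.53. Stmn4 (0.07), Cmah (-0.04) and Cd55 (-0.33) were within 2-fold. The 4 rule genes chose the members of each tissue, so their levels here describe that choice, and they were left in these counts. The other gate cells had the same direction in quadriceps and diaphragm. Efhd1 was at 206 and 60.1 CPM there, Fam167a at 18.2 and 3.67 CPM, and Duox1 at 14.6 and 2.51 CPM.

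Some position genes separated the muscles. Of 18 listed Hox and limb genes, 4 had at least 50 CPM in the higher tissue within members, and the others were under that floor. Of the 4, 3 were at least 2-fold higher in quadriceps and 1 in diaphragm, where 2.68% and 4.60% of all genes were. Hoxc10, a homeobox gene of hindlimb and caudal trunk, had 220 UMIs in quadriceps members (59.0 CPM) and 0 in diaphragm members, which allows up to 1.36 CPM. Hoxc9 was at 61.1 against 0.452 CPM and Shox2, a limb homeobox gene, at 68.9 against 2.71 CPM. Wt1, a transcription factor of mesothelium and of diaphragm development, had 210 UMIs in diaphragm members (95.01 CPM) and 0 in quadriceps members, which allows up to 0.804 CPM. The other gate cells had Hoxc10 at 78.2 and 0 CPM and Wt1 at 0 and 98.6 CPM in quadriceps and diaphragm. Of the mesothelial markers listed, 4 of 6 were at 0 in the diaphragm members.

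Other genes higher in quadriceps members were S100a4, a calcium-binding protein, at 436 against 24.9 CPM, Procr, the endothelial protein C receptor, at 366 against 32.6 CPM, Sfrp2, a Wnt modulator, at 131 against 7.24 CPM, Il1r2, a decoy receptor for interleukin-1, at 74.8 against 0.905 CPM, and Il18 at 128 against 19.9 CPM. The difference of Sfrp2 was -4.00 in members and -0.91 in the other gate cells. Ccl21a was also called in this direction, but its level rested on 1 cell. Of 205 Ccl21a UMIs in quadriceps members 204 were in 1 cell, and without it Ccl21a was at 0.269 CPM.

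Diaphragm members held more RNA of immediate early and stress genes. All 15 genes of that list were at least 2-fold higher in diaphragm members than in quadriceps members, where 4.60% of all genes were, and the list summed to 23301 against 3991 CPM. Fos was at 2068 against 76.1 CPM, Atf3 at 637 against 19.3 CPM, Btg2 at 666 against 29.5 CPM and Hspa1b at 3837 against 519 CPM. The other gate cells showed the same, with the list at 28071 and 6012 CPM. Such genes respond within minutes to many stimuli, and tissue and library cannot be told apart here. Against the other gate cells of their own tissue, 5 of 12 above the floor were lower in quadriceps members (3.68% of all genes were), Fos by the most at 76.1 against 317 CPM (-2.04), and 0 in diaphragm members, where Fos was at 2068 against 3020 CPM (-0.55).

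Further genes higher in diaphragm members were Thbs4, a matricellular protein of tendon and muscle, at 919 against 13.1 CPM, Mfap4, a microfibril-associated protein, at 575 against 16.4 CPM, Gm12840 at 679 against 6.70 CPM and Il6 at 84.1 against 0.804 CPM. Thbs4 is also a tendon marker and made up most of the 925 CPM to which the 9 tenocyte genes summed in diaphragm members (29.8 CPM in quadriceps). Scx, Kera and Cilp2 were at 0 in members of both tissues, and Tnmd, which the gate limited, Comp, Fmod, Mkx and Chad were each at or under 9.38 CPM. Of the 186 Il6 UMIs 32.8% were in 1 diaphragm member. Ccl2, a monocyte-attracting chemokine, was at 484 CPM in diaphragm and 18.5 CPM in quadriceps members, whereas the other gate cells had 102 and 154 CPM. At full depth it was seen in 20.6% of diaphragm members and 3.48% of quadriceps members, and 1 cell held 28.3% of its 1069 UMIs in diaphragm members, without which the level was 349 CPM.

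**Figure D5:**
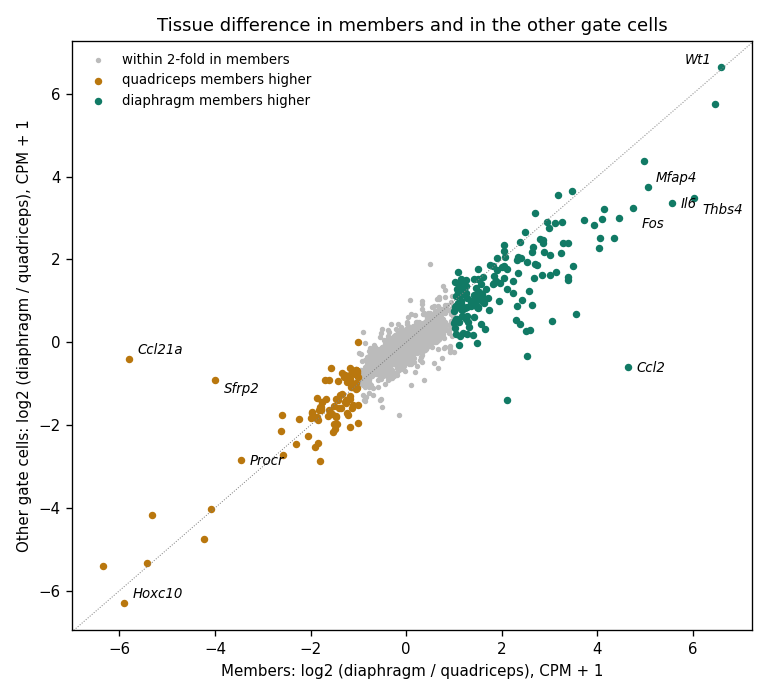
Log2 fold of diaphragm over quadriceps (CPM plus 1) in members (horizontal) and in the other gate cells (vertical) for 3390 genes; the dotted line marks equal folds. Hoxc10 and Wt1 lie near the line at its ends, while Ccl2 (4.64 in members, -0.59 in the others) and Ccl21a lie far from it.

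Dividing cells were nearly absent. The 10 cell cycle genes summed to 50.9 CPM in quadriceps members, where Mki67 and Top2a had 0 UMIs, which allows up to 0.804 CPM each. In diaphragm they summed to 143 CPM against 58.4 CPM in the other gate cells. Of 17 Mki67 UMIs there, 58.8% were in 1 member, and only 2 of 141 members held any. Of 36 Top2a UMIs, 83.3% were in 1 member.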

How the data were processed

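Single-cell RNA was measured in 2 libraries, 1 of quadriceps and 1 of diaphragm. The authors' submitted notes name Cell Ranger 3.0.0, Seurat and the build mm10, and they deposited raw UMI counts per gene and barcode for 27998 genes after their cell calling. Total UMIs set the precision of each value. From these counts, cells were gated and members chosen with the limits given above. UMIs were summed per class and tissue and scaled to CPM, with 95% exact Poisson intervals, and log2 folds used 1 CPM added to each side. Intervals of log2 folds came from the exact binomial split of the 2 counts, without that addition. Shares of cells were computed at full depth and, where stated, after thinning to 3000 UMIs (5000 for co-detection), with 95% exact binomial intervals, and 0 counts allow up to 3. Members and gene lists were chosen with earlier results of these data known, so all comparisons are descriptions. Named genes were the rule genes and markers, the 15 leading genes per direction, the 10 per direction between tissues, and up to 6 per list; a few of these are not reported here. Doublets were not removed; as an alternative, Scrublet (scanpy 1.11.5) called 95 quadriceps barcodes (1.84%), 1 of them a member, and 3 diaphragm barcodes (0.120%), too few to have worked there. The calculation was tested on simulated data. Python 3.11.15, numpy 2.4.6, scipy 1.17.1, pandas 2.3.3 and matplotlib 3.10.9 were used.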

Additional observations from a re-analysis of the deposited data

Results flagged for a closer look

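Ccl2 was the only one of the 2992 genes compared that passed 2-fold in opposite directions in the tissues. Its log2 fold of members over other gate cells was -2.99 in quadriceps, from 18.5 against 154 CPM, and 2.24 in diaphragm, from 484 against 102 CPM. The difference between these folds was not tested. With 1 of the 4 rule genes enough for a member, the quadriceps fold turned to 0.12, and the directions were then no longer opposite. In quadriceps 10 members held 69 Ccl2 UMIs, 28 of them in 1 cell, and in diaphragm 29 members held 1069, 303 of them in 1 cell. Without the cell with most UMIs in each class, Ccl2 was at 11.1 against 124 CPM and at 349 against 68.9 CPM.

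Barcodes over the mitochondrial limit of 5% were not used in any comparison, and some met the rest of the rule. They numbered 54 of 562 in quadriceps (9.61%, 95% exact binomial interval 7.30% to 12.4%) and 11 of 348 in diaphragm (3.16%, interval 1.59% to 5.59%). There, Fbn1 was at 2879 against 863 CPM in quadriceps and 2352 against 614 CPM in diaphragm, and Cxcl14 at 298 against 2415 CPM and 145 against 1295 CPM.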

How the results depend on the processing

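The share of members, 16.3% in quadriceps and 10.2% in diaphragm, moved most with the rule. It was 8.32% and 2.60% with at least 3 of the 4 genes, 29.2% and 34.1% with at least 1, which turned the order of the tissues, 10.1% and 4.29% with cells thinned to 5000 UMIs, and 27.3% and 13.6% with no limit on Dmkn, Sbsn and Krtdap. The 21 genes higher in both tissues became 36 with at least 3 genes, 2 with at least 1, 81 with no Dmkn limit, 38 with a mitochondrial limit of 10%, 13 with others weighted to the members' depth, 35 with the mean of cells' CPM, 12 with 10 CPM added, 47 with a floor of 10 CPM, 80 against cells with 0 of the 4 genes, and 59 against others without Dmkn cells, an alternative chosen after seeing the data. The 51 lower genes became 21 with at least 1 gene, 129 with the lower floor and 77 against cells with 0 genes. The tissue counts within members, 156 and 91, became 380 and 279 with the lower floor, since more genes were tested. With at least 1 gene, the quadriceps folds of Col8a1 (0.89), Ccl2 (0.12) and Thbs4 (0.60) reversed. For the other shifts the cause was not tested. The 60 folds of the 30 leading genes kept their sign under all 14 alternatives, and 36 stayed past 2-fold. No paired analysis was possible because each tissue had 1 library and no result comes from a test. Depth limits what can be said of genes near 0, where members allow up to 0.804 CPM in quadriceps and 1.36 CPM in diaphragm.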
